A study of Mus musculus with 4 samples.

Results

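Type 1 conventional dendritic cells (cDC1) were taken from single-cell RNA libraries of mouse pancreas and pancreatic tumours. They were chosen by their own measured counts: a barcode was a member when it held at least 500 UMIs (unique molecular identifiers, the counted RNA molecules), at least 250 genes and at most 20% mitochondrial UMIs, had at least 2 UMIs of Xcr1 and Clec9a together, and had no UMI of Ccr7, Cd3e, Cd79a or Csf3r. Of 44162 barcodes that passed the quality filter in 4 libraries, 218 were members. The normal pancreas held 0 of 1772, the ligated pancreas 1 of 1124, the control tumour 108 of 21398 and the AF12198 tumour 109 of 19868.

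cDC1 are a small branch of the dendritic cell lineage that takes up dead cells and presents their antigens on MHC class I to CD8 T cells, a process called cross-presentation. Their development needs the transcription factors IRF8 and BATF3 and the growth factor receptor FLT3, and WDFY4 is required for cross-presentation of cell-borne antigen. XCR1 is the receptor for the chemokine XCL1, which NK and CD8 T cells make, and CLEC9A binds actin exposed by dead cells. In tumours, cDC1 are known as a source of IL-12 and of the T cell attractants CXCL9 and CXCL10, and cDC1 that have matured gain CCR7 and leave for the lymph node.

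The study used an orthotopic allograft model of pancreatic ductal adenocarcinoma, in which KPC cells, a mouse pancreatic cancer line, were injected into a pancreas whose duct had been closed at its middle by a suture, which brings on pancreatitis. The groups were an untouched normal pancreas, a pancreas with the suture alone, and KPC tumours in ligated pancreases. The control tumour was given weekly intraperitoneal saline, and the AF12198 tumour weekly intraperitoneal AF12198. AF12198 is a peptide described as a blocker of the interleukin-1 receptor IL1R1. Whether it blocked that receptor in these mice was not tested. Tissue was harvested at 4 weeks. The labels state neither strain, sex nor age, nor how many mice lie behind a library.

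Each group was 1 library, so no difference below has a replicate check, no test was made, and treatment, mouse and library preparation cannot be told apart. Each interval printed in brackets has a level of 95% and holds counting error alone. The tumour libraries held 91746734 (control) and 91819215 (AF12198) UMIs in kept barcodes, with medians of 2166 and 2425 UMIs per barcode, and the members were deeper at medians of 7182 and 10667 UMIs and of 2539 and 2701 genes. RNA of cell types that the members are not was also found in them, and it moved with the library: immunoglobulin Igkc had a UMI in 93.5% of members (92.1% of all kept barcodes) of the control tumour and in 45.0% (32.7%) of the AF12198 tumour, and the acinar enzyme Ctrb1 in 11.1% (6.4%) and 57.8% (47.6%). The part of such RNA in the results was not tested. The 2 tumour libraries shared 129 barcode sequences, and 1 member of each carried one of these, but no barcode was a member in both.

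At least 2 UMIs of Xcr1 and Clec9a were found in 179 barcodes of the control tumour and 164 of the AF12198 tumour, of which 71 and 55 were set aside for a UMI of another cell type's gene, namely Csf3r (37 and 23), Ccr7 (33 and 31), Cd3e (24 and 7) or Cd79a (3 and 3), with more than 1 of these genes in 22 and 9. Both genes were present in 62 control and 64 AF12198 members, Xcr1 alone in 11 and 16, and Clec9a alone in 35 and 29. The median of the 2 genes together was 4 UMIs in either tumour, and the highest member held 40 and 30. The single member of the ligated pancreas had 983 UMIs, among them 2 of Clec9a and none of Xcr1, Batf3, Wdfy4 or Flt3, so that library gives no cDC1 profile.

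**Figure D1:**
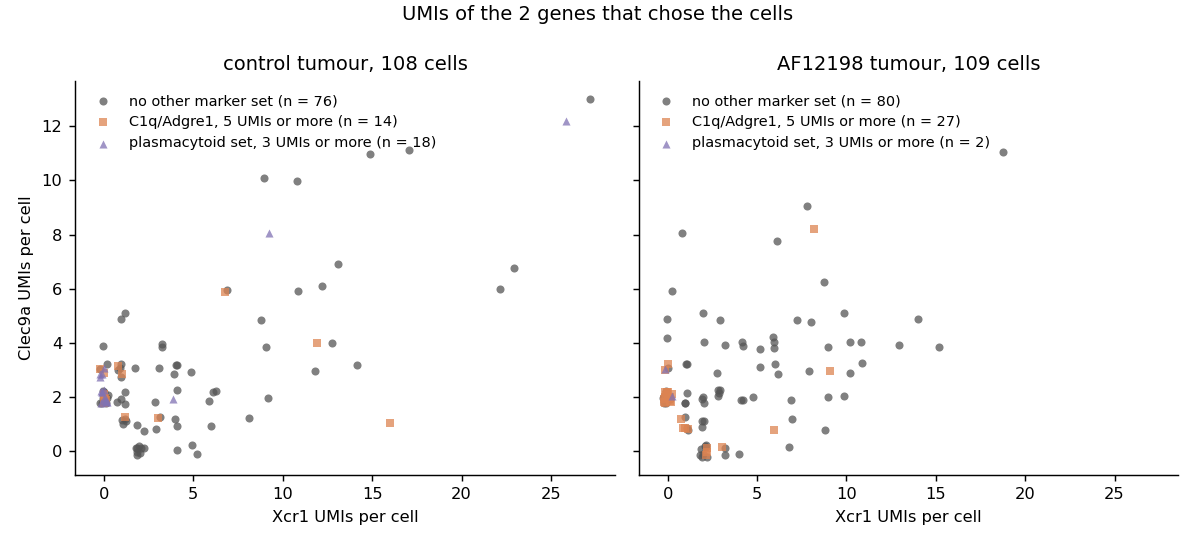
Each point is 1 member, with its Xcr1 UMIs on the x axis and its Clec9a UMIs on the y axis (points shifted slightly so that they do not hide each other), for the control tumour (108 cells) and the AF12198 tumour (109 cells); colour and shape mark cells that also carried plasmacytoid or macrophage markers. Most plasmacytoid-marker cells (18 and 2) sit on the Clec9a axis with no Xcr1 UMI, and both tumours have many members at 2 UMIs, the lowest sum allowed.

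Members at the lowest allowed sum looked less like cDC1 than the rest. Levels are given as CPM, a gene's UMIs scaled to 1000000 UMIs of the class. Wdfy4 stood at 705 in the 69 control members with 3 or more Xcr1 and Clec9a UMIs, 268 in the 39 with exactly 2, and 76.7 in the 126 barcodes just outside with 1. The same order held in the AF12198 tumour, with Wdfy4 at 567 in 69 members, 196 in 40 and 85.7 in 135 barcodes just outside. The complement gene C1qa, a macrophage marker, ran the other way: 231, 932 and 1463 CPM in the control tumour and 165, 1442 and 1988 CPM in the AF12198 tumour. Gene-level results are therefore given for all members and for a stricter set described below.

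The label was checked with the markers that the rule did not use. Wdfy4 stood at 610 CPM (561 to 662) in control members and 442 (406 to 480) in AF12198 members. The next highest of 9 other gated classes (cDC2, mature Ccr7 dendritic cells, macrophages, neutrophils, CD8 T, NK, B, epithelial cells and fibroblasts) was the cDC2 gate, with Wdfy4 at 116 and 90.5 CPM. Flt3 was also highest in the members, at 268 CPM (236 to 303) and 98.9 (82.2 to 118), against 113 (98.4 to 128) and 75.4 (64.7 to 87.4) in mature dendritic cells, so that in the AF12198 tumour the intervals of the pair overlapped. Batf3 reached 78.9 CPM (62.0 to 99) against 47.1 (38.1 to 57.6) in mature dendritic cells of the control tumour, and 60.6 (47.7 to 75.8) against 58.0 (48.6 to 68.6) in the AF12198 tumour, where the order was within counting error. Of the 3 markers that the rule did not use, only Wdfy4 stood well above every other class in both tumours. For Flt3 and Batf3 the intervals were apart from those of mature dendritic cells in the control tumour alone. The members are called cDC1 below as a short name for the cells that the rule chose. Among them are 18 control and 2 AF12198 cells with plasmacytoid markers, and 14 and 27 with macrophage markers, described further on.

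Irf8 did not single out the members in the same way. It stood at 1302 CPM in control members, above NK cells at 903, but at 607 CPM (564 to 651) in AF12198 members, beside NK cells at 652 (605 to 701). An Xcr1 UMI was found in 67.6% of control and 73.4% of AF12198 members, against 0.117% and 0.110% of epithelial cells, where its RNA is not expected, at medians of 7036 and 6922 UMIs. The members' share follows from the rule and is no finding.

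**Figure D2:**
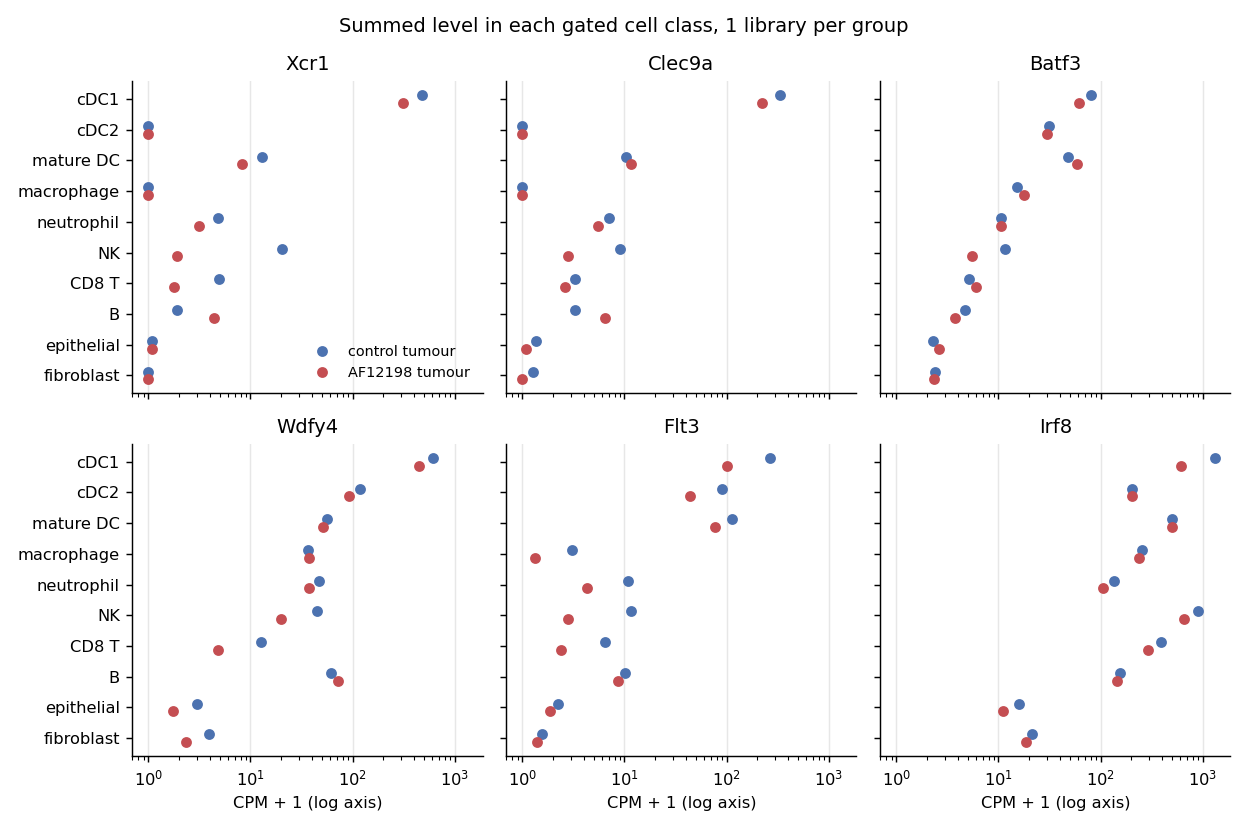
Summed level (CPM + 1, log axis) of Xcr1, Clec9a, Batf3, Wdfy4, Flt3 and Irf8 in each gated class, with 1 point for the control tumour and 1 for the AF12198 tumour. Xcr1 and Clec9a are at 0 in cDC2 and macrophages because those gates required it; Wdfy4 is well above all other classes in cDC1 of both tumours, while Irf8 of AF12198 cDC1 (607 CPM) lies beside NK cells (652 CPM).

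Other genes set cDC1 apart from their nearest relatives in both tumours. Of 5182 genes with enough UMIs, 101 were at least 2-fold above the highest of the cDC2, mature dendritic cell and macrophage gates in each tumour, which describes the gated cells and is no test. By the lower of the 2 tumours' ratios, the first gene beside the pair of the rule was Cyp26b1, which encodes an enzyme that breaks down retinoic acid, at 199 CPM in control and 178 CPM in AF12198 cDC1 against at most 7.44 and 5.11 in the other gates. Itgae, the CD103 integrin chain of tissue cDC1, stood at 557 and 378 CPM against at most 37.7 and 31.5. Tlr3, the receptor for double-stranded RNA, stood at 170 and 72.6 CPM against at most 13.2 and 11. Plet1 was at 983 and 836 CPM against at most 168 and 145. Xcr1 and Clec9a were also among the first 20, but they chose the members and were required at 0 in the cDC2 and macrophage gates, so their place was set by the gates and is no finding. The other genes among the first 20 were Gm36723, Gpr141b, Gcsam, Hepacam2, Snx22, Pianp, Sult1a1, E330020D12Rik, Asb2, Gm43914, Sept3, Gpr82, Tnni2 and Qpct.

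The rule also admitted cells with markers of other lineages, and these differed in number between the tumours. At least 3 UMIs over 6 plasmacytoid dendritic cell genes (Siglech, Ccr9, Ly6d, Cox6a2, Klk1 and Cd300c) were carried by 18 of 108 control members, 16.7% (10.2 to 25.1), and by 2 of 109 AF12198 members, 1.83% (0.223 to 6.47). Among those 18, 15 had Clec9a and no Xcr1 UMI. In mouse, Clec9a is known to be expressed by plasmacytoid dendritic cells as well. The 18 cells held Siglech at 1854 CPM, Tcf4, the master factor of the plasmacytoid lineage, at 1854 CPM and Irf8 at 1746 CPM, but Wdfy4 at 217 CPM. The level of Siglech follows from the definition of these cells, while Tcf4, Irf8 and Wdfy4 were no part of it.

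At least 5 UMIs of the macrophage genes C1qa, C1qb, C1qc and Adgre1 were carried by 14 control members, 13% (7.27 to 20.8), and 27 AF12198 members, 24.8% (17 to 34.0). In these 27 cells Lyz2 stood at 9181 CPM and Cxcl2 at 6167 CPM, while Xcr1 stood at 104 CPM and Flt3 at 28.9 CPM. In the 14 control cells Lyz2 stood at 2136, Cxcl2 at 1351, Xcr1 at 205 and Flt3 at 60.0 CPM. Whether such barcodes are cells of another type, doublets or cDC1 that hold macrophage RNA was not tested. Leaving out both kinds left a stricter set of 76 control and 80 AF12198 cDC1, with medians of 6839 and 10731 UMIs. These thresholds were set after the values had been seen.

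Whole marker lists of other cell types were summed over all members. The macrophage list (11 of 11 genes with a UMI) summed to 2449 CPM in control and 4132 CPM in AF12198 members, with a median cell at 6.06 and 3.42 UMIs per 10000 and the highest cell at 221 and 514, and at least 5 UMIs of the list were found in 46 control members (42.6%) and 43 AF12198 members (39.4%), 24 and 15 of them in the stricter set. The plasmacytoid list (7 of 7 genes) summed to 909 and 107 CPM. The cDC2 list (7 of 8 genes, Clec4a4 at 0) stood at 375 and 388 CPM, and the mature dendritic cell list (7 of 8, Ccr7 at 0 by the rule) at 276 and 230 CPM. The NK list stood at 3.20 and 6.38 CPM, with Ncr1, Gzmb and Eomes at 0 in either tumour. The erythroid list (4 of 4 genes) stood at 1273 and 1688 CPM, the monocyte list (6 of 6) at 956 and 699 CPM, and the fibroblast list (6 of 6) at 805 and 1035 CPM. The neutrophil list stood at 501 and 527 CPM and the acinar list at 54.4 and 214 CPM. The plasma cell list stood at 730 and 148 CPM, below the 11200 and 3903 CPM of all kept barcodes.

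The share of cDC1 differed between the tumours by less than counting error. In the control tumour cDC1 were 0.505% (0.414 to 0.609) of kept barcodes, and in the AF12198 tumour 0.549% (0.451 to 0.661), a ratio of 1.09 (0.825 to 1.43). Among barcodes with a UMI of the leukocyte gene Ptprc the shares were 0.753% and 0.786%, a ratio of 1.04 (0.792 to 1.37). Among cDC1, cDC2 and mature dendritic cells together they were 22.7% and 21.6%, a ratio of 0.951 (0.722 to 1.25). In the stricter set the shares of kept barcodes were 0.355% and 0.403%, a ratio of 1.13 (0.818 to 1.57). The normal pancreas had 0 of 1772, which allows a share of up to 0.169%, and 43 of its barcodes carried a Ptprc UMI, so cDC1 were not detectable there at this depth. A dissociated suspension gives shares of the barcodes that were captured, not numbers of cells per tissue.

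More genes of cDC1 had a lower level in the AF12198 tumour than had a higher one. CPM is a share of the UMIs of a class, so this does not mean less RNA per cell. With 20 or more UMIs over both tumours, 7843 genes were measured, and their median log2 ratio of AF12198 over control, from CPM + 1, was -0.34. At least 2-fold higher were 353 genes (4.5%) and at least 2-fold lower 1209 (15.4%); at 1.5-fold these were 794 (10.1%) and 2766 (35.3%). Relative to the median ratio the split was 698 higher and 505 lower at 2-fold. In the stricter set 6540 genes were measured with a median of -0.35, 326 (4.98%) were at least 2-fold higher and 968 (14.8%) lower, and at 1.5-fold 720 (11%) were higher and 2343 (35.8%) lower. A median below 0 was also found in every other class of the tumours, from -0.13 in B cells to -0.45 in mature dendritic cells and CD8 T cells, so it was not particular to cDC1. List medians are therefore given beside the median of all genes, and counts of list genes past 1.5-fold are read against 10.1% higher and 35.3% lower of all genes in all members, and 11% and 35.8% in the stricter set.

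**Figure D3:**
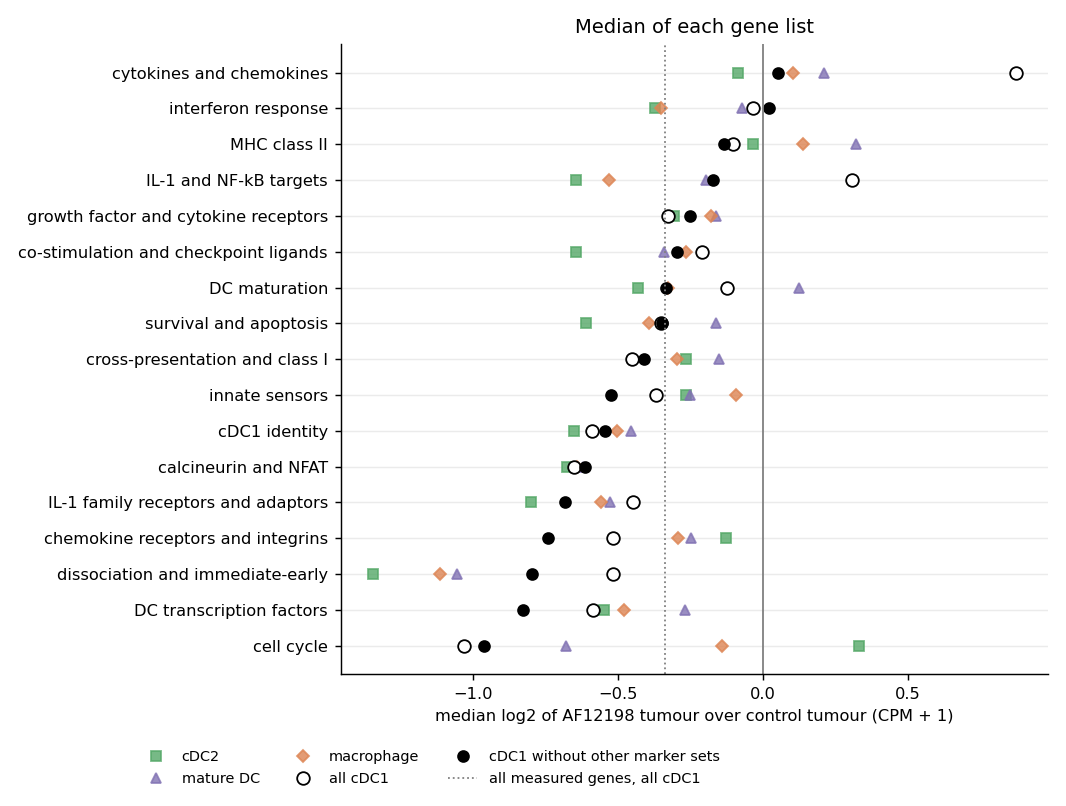
Median log2 ratio of AF12198 over control tumour (x axis, from CPM + 1) for each of 17 gene lists (y axis). Open circles are all cDC1, and filled circles are the stricter set, without plasmacytoid-marker and macrophage-marker cells. The other symbols are 3 other gates. The dotted line is the median of all 7843 genes measured in cDC1, -0.34. In the stricter set the cell cycle list lies furthest to the left (-0.96), and the cytokine list moves from 0.87 in all cDC1 to 0.05.

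Many genes of cDC1 identity were lower in the AF12198 tumour. Of 27 listed genes measured, 14 (51.9%) were at least 1.5-fold lower and none higher, beside 35.3% of all genes lower, with a median of -0.59, or -0.25 relative to all genes. Xcr1 and Clec9a, which chose the cells, are among the 14, and the AF12198 members were the deeper ones. Without the pair 12 of 25 genes were lower and none higher, with a median of -0.56 (-0.22 relative to all genes). In the stricter set 10 of 26 genes (38.5%) were lower and none higher, a share near the 35.8% of all genes, and the median was -0.54. The 10 did not include Xcr1 or Clec9a. The same list had medians of -0.65 in cDC2, -0.46 in mature dendritic cells and -0.50 in macrophages, so the list as a whole did not set cDC1 apart. Single members of the list did differ between classes, as follows, with levels of the stricter set.

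Irf8, the transcription factor that cDC1 need throughout life, stood at 1404 CPM in control cDC1 and 702 CPM in AF12198 cDC1, 2.0-fold lower (1.80 to 2.22). In single control cells it had a median of 12.5 UMIs per 10000 (0 to 44.6), and in AF12198 cells 6.0 per 10000 (0 to 27.0), with wide overlap. At 1000 UMIs per cell, an Irf8 UMI was found in 54 of 74 control cells (73.0%) and 38 of 80 AF12198 cells (47.5%), against 93.4% and 92.5% unthinned. The log2 ratio of Irf8 was 0.01 in cDC2, 0.00 in mature dendritic cells and -0.09 in macrophages. The lower level in cDC1 was present in all members too, at 1302 and 607 CPM.

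Flt3, the receptor for the dendritic cell growth factor FLT3L, stood at 314 CPM in control and 124 CPM in AF12198 cDC1, 2.53-fold lower (1.99 to 3.22). The median cell held 2.42 Flt3 UMIs per 10000 in the control and 1.09 in the AF12198 tumour, and a Flt3 UMI was present in 77.6% and 62.5% of cells. Flt3 was lower in the other dendritic cells as well, with log2 ratios of -1.05 in cDC2 and -0.57 in mature dendritic cells.

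**Figure D4:**
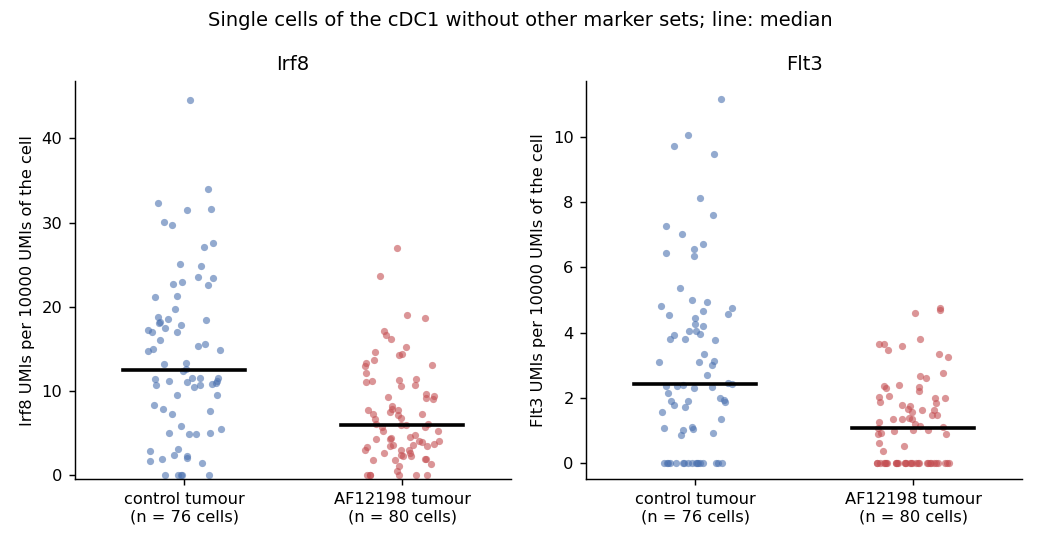
Irf8 and Flt3 UMIs per 10000 UMIs of the cell (y axis) in each cell of the stricter cDC1 set, 76 in the control and 80 in the AF12198 tumour; the line is the median and points are spread sideways for view. The medians are 12.5 and 5.98 for Irf8 and 2.42 and 1.09 for Flt3, the ranges overlap, and cells are not replicates of a tumour.

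The other genes of the list ranged from lower to within counting error. Zbtb46, a transcription factor that marks conventional dendritic cells, stood at 53.4 and 12.3 CPM, 4.34-fold lower (2.14 to 9.52), on 33 and 11 UMIs. Tlr3 stood at 226 and 97.2 CPM, 2.33-fold lower (1.77 to 3.08). Cadm1, an adhesion molecule of cDC1, stood at 251 and 109 CPM, 2.29-fold lower (1.77 to 2.98). These genes were lower in AF12198 cDC2 as well, at log2 ratios of -1.48 for Zbtb46, -0.78 for Tlr3 and -1.92 for Cadm1. Naaa, a lysosomal amidase abundant in cDC1, stood at 2090 and 1146 CPM, 1.82-fold lower (1.68 to 1.98), and was lower in mature dendritic cells too (-1.33).

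Wdfy4 stood at 775 and 564 CPM, a ratio of 0.728 (0.641 to 0.827), which is close to the median of all genes. Xcr1 and Clec9a, which chose the cells, stood at 586 and 391 CPM and at 359 and 249 CPM. Batf3 stood at 98.7 and 74.9 CPM, a ratio of 0.759 (0.528 to 1.09) that included 1. Itgae stood at 644 and 501 CPM, a ratio of 0.778 (0.678 to 0.892). The profilin sensor Tlr11, at 24.3 and 25.7 CPM, and Snx22, at 50.1 and 46.9 CPM, had ratios of 1.06 (0.529 to 2.18) and 0.936 (0.575 to 1.54). Ratios within the list thus ran from 0.230 for Zbtb46 to 1.28 for Clnk (0.476 to 3.80).

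**Figure D5:**
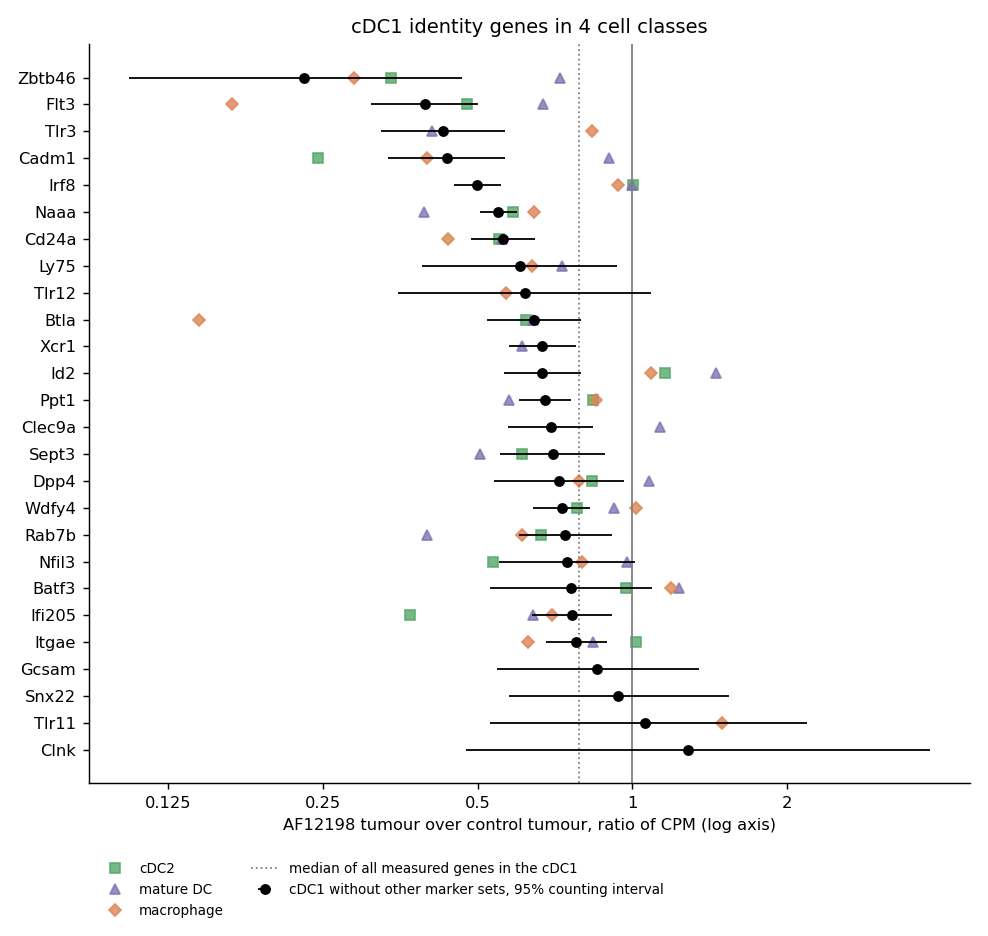
Ratio of CPM in the AF12198 over the control tumour (log x axis) for each measured cDC1 identity gene (y axis), in the stricter cDC1 set with its 95% counting interval (black) and in cDC2, mature dendritic cells and macrophages where measured; the dotted line is the median ratio of all genes in these cDC1. Irf8 lies at 0.50 in cDC1 and near 1 in the other gates, whereas Flt3, Zbtb46 and Cadm1 are below 1 in all 4 classes.

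The promoters of 3 of these genes are shown: Xcr1 and Clec9a because this pair defines the cells, and Zbtb46 because it had the lowest ratio of the list. The levels of the pair, which the rule used, are a description. BATF3 binds AP-1 sites with JUN partners, and together with IRF8 it binds composite sites in which an AP-1 site and an IRF element lie close together. Each line is the RefSeq window of 300 bases (250 before to 50 after the start site, GRCm38.p6), 5′ to 3′ on the gene's strand. The windows are chr9:123861980-123862279 (minus strand) for Xcr1, chr6:129408612-129408911 (plus strand) for Clec9a and chr2:181424339-181424638 (minus strand) for Zbtb46. Capitals mark a match to a searched motif.
Xcr1: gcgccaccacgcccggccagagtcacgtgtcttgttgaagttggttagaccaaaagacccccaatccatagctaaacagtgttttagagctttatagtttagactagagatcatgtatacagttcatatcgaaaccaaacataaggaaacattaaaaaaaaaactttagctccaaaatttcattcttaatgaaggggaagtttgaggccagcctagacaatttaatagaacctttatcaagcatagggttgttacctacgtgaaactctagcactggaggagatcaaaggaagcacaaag
Clec9a: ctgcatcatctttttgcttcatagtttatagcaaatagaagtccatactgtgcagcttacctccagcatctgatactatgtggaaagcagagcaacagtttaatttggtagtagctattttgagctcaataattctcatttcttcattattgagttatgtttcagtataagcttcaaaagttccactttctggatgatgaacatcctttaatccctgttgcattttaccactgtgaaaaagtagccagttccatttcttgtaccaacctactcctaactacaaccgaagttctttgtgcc
Zbtb46: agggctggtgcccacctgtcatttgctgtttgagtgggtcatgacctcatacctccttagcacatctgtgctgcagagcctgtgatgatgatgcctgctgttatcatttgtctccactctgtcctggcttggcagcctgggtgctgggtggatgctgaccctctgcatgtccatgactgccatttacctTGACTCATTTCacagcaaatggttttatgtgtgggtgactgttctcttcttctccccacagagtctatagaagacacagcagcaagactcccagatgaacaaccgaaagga
Both strands were searched for the ETS-IRF composite element, the tandem IRF element, the AP-1 site TGANTCA, the AP-1-IRF composite with any 4 bases between its parts, and the AP-1-IRF composite with its parts adjacent. Both AP-1-IRF composites hold the AP-1 letters. Of 32851 mouse windows of this length, these were found in 2.72%, 3.44%, 7.81%, 0.119% and 0.12%, in that order. Zbtb46 held TGACTCA, which reads as TGANTCA on both strands, at bases 190 to 196 of the window, and with the next 4 bases the adjacent composite on the opposite strand. No other window of Xcr1, Clec9a, Batf3, Wdfy4, Flt3, Irf8, Naaa, Tlr3 or Cbfa2t3 held any of the 5. A match is a string of letters, not a shown binding site, and these windows do not hold the distant enhancers of the genes.

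Dendritic cell transcription factors were lower, and of the 17 plotted lists only the cell cycle list had a lower median in the stricter set. Of 19 measured in all members, 10 (52.6%) were at least 1.5-fold lower and none higher, beside 35.3% of all genes lower, with a median of -0.59. In the stricter set 11 of 18 (61.1%) were lower and none higher, beside 35.8%, with a median of -0.83. The list was lower outside cDC1 as well. Its median was -0.55 in cDC2, -0.27 in mature dendritic cells, -0.48 in macrophages and -0.57 over all kept barcodes. Single genes follow, with levels of the stricter set. Beside Irf8 and Zbtb46, the lower ones included Cbfa2t3 (ETO2), at 275 and 122 CPM, 2.26-fold lower (1.76 to 2.90). Bcl6, a repressor that cDC1 depend on, stood at 71.2 and 23.5 CPM, 3.03-fold lower (1.77 to 5.37). Mycl, which supports the growth of cDC1, stood at 61.5 and 29.1 CPM, 2.12-fold lower (1.25 to 3.63). Spi1 (PU.1), at 283 and 268 CPM, and Runx3, at 272 and 298 CPM, had ratios of 0.947 (0.776 to 1.16) and 1.10 (0.902 to 1.34). Tcf4 and Bcl11a were lower in all members at 0.154 (0.116 to 0.201) and 0.161 (0.0893 to 0.274) and in the stricter set at 0.376 (0.234 to 0.592) and 0.333 (0.158 to 0.667). The plasmacytoid-marker cells held 222 of the 316 control UMIs of Tcf4 and 50 of the 79 of Bcl11a.

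MHC class II genes stayed near the same level, with a median of -0.10 over 10 measured genes that is 0.23 relative to all genes. None was 1.5-fold higher and 2 were lower in all members. The stricter set had none higher and 1 lower, with a median of -0.13 (0.21 relative to all genes). Cd74, the invariant chain, stood at 11442 CPM in control and 11702 CPM in AF12198 cDC1 of the stricter set, a ratio of 1.02 (0.992 to 1.05). H2-Eb1 stood at 4569 and 5545 CPM, a ratio of 1.21 (1.16 to 1.27). Ciita, the activator of the class II genes, stood at 139 and 86.0 CPM, a ratio of 0.619 (0.449 to 0.851).

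Of 26 genes of MHC class I and cross-presentation, 9 (34.6%) were at least 1.5-fold lower and none higher in all members, a share near the 35.3% of all genes, with a median of -0.45 (-0.11 relative to all genes). The stricter set had 10 (38.5%) lower and none higher, with a median of -0.41 (-0.07 relative to all genes). Tapbp (tapasin), which loads peptides onto class I, stood at 579 and 273 CPM in the stricter set, 2.12-fold lower (1.80 to 2.51). The peptide transporter gene Tap1 stood at 401 and 260 CPM, a ratio of 0.649 (0.540 to 0.779). The class I heavy chain gene H2-K1 had a ratio of 0.644 (0.589 to 0.705) and the light chain gene B2m 0.657 (0.612 to 0.706). Rab43, a factor of cross-presentation, stood at 471 and 332 CPM, a ratio of 0.705 (0.598 to 0.832). The immunoproteasome gene Psmb8 went the other way, at 676 and 902 CPM, a ratio of 1.33 (1.18 to 1.5), and Psmb9 had a ratio of 1.27 (1.12 to 1.45). Psmb8 and Tapbp moved in the same directions in the other dendritic cells, at log2 ratios of 1.14 and -0.65 in cDC2.

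Co-stimulatory and checkpoint ligand genes had a median of -0.21 in all members (15 measured, 1 higher and 5 lower) that lay 0.13 above the median of all genes. Over 14 genes of the stricter set the median was -0.30 (none higher, 6 lower), 0.05 above that of all genes. The classical ligands Cd80, at 69.5 and 57.0 CPM, and Cd86, at 159 and 152 CPM, had ratios of 0.819 (0.535 to 1.26) and 0.959 (0.734 to 1.26) in the stricter set. Cd83, which steadies class II and CD86 on the surface, stood at 846 and 468 CPM, 1.81-fold lower (1.59 to 2.06). Icosl, the ligand of ICOS on T cells, stood at 27.5 and 4.47 CPM, 6.15-fold lower (2.01 to 25.1), on 17 and 4 UMIs. Cd274 (PD-L1) stood at 154 and 101 CPM, a ratio of 0.654 (0.485 to 0.883).

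The maturation list had a median of -0.12 in all members (14 measured, 2 higher and 4 lower), or 0.22 relative to all genes. Over 12 genes of the stricter set the median was -0.33 (2 higher, 5 lower), or 0.01 relative to all genes. Aldh1a2, which makes retinoic acid, stood at 53.4 and 95 CPM in the stricter set, a ratio of 1.78 (1.18 to 2.75), while its log2 ratio was -0.74 in cDC2. Traf1 stood at 218 and 113 CPM, a ratio of 0.517 (0.395 to 0.674). Fscn1, which mature dendritic cells express, was at 8.09 and 6.70 CPM, and the rule's exclusion of Ccr7 bears on this. Barcodes that met every condition but carried Ccr7 alone of the 4 excluded genes numbered 15 and 22, with Il12b at 372 CPM in the control and 125.1 CPM in the AF12198 tumour, and Ccl22 at 1212 and 361 CPM.

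Cytokine and chemokine genes were higher as a list in all AF12198 members, but in the stricter set they went both ways. Of 17 measured, 9 (52.9%) were at least 1.5-fold higher and 1 lower, beside 10.1% of all genes higher. The median was 0.87 (1.21 relative to all genes). In the stricter set 7 (41.2%) were higher and 4 (23.5%) lower, beside 11% and 35.8% of all genes. The median there was 0.05 (0.40 relative to all genes), with 6 intervals above a ratio of 1 and 5 below. Summed over the list, the stricter set held 3532 CPM in the control and 3346 CPM in the AF12198 tumour. Cxcl2, a neutrophil attractant, shows the difference: 735 and 2270 CPM in all members, and 532 and 784 CPM in the stricter set, where 5 AF12198 cells held 75.4% of its UMIs and the median cell 0.963 UMIs per 10000 against 2.36 in the control. Tnf stood at 36.3 and 77.3 CPM in all members and at 42.1 and 24.6 CPM in the stricter set. Il1b, made mostly by macrophages and neutrophils, stood at 1331 and 1103 CPM in the stricter set, a ratio of 0.828 (0.754 to 0.910).

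Among the chemokines for T cells, Cxcl9 did not differ in the stricter set beyond counting error, at 285 and 295 CPM, a ratio of 1.04 (0.853 to 1.26). It had a UMI in 38.2% and 40.0% of cells. Cxcl10 stood at 25.9 and 79.3 CPM, a ratio of 3.07 (1.76 to 5.65), but 5 AF12198 cells held 90.1% of its UMIs and it was found in 13.2% and 13.8% of cells. Ccl17, a ligand of CCR4, stood at 85.7 and 266 CPM, a ratio of 3.10 (2.30 to 4.26), and had a UMI in 11 of 76 and 24 of 80 cells. Its UMIs were concentrated too, with 86.8% of the control and 71.0% of the AF12198 ones in 5 cells of each tumour. Ccl17 was higher in the AF12198 tumour in cDC2 (log2 ratio 1.34), mature dendritic cells (1.87) and macrophages (1.37) too. Ccl5 had 1 and 48 UMIs, in 1 and 5 cells, and 43 of the AF12198 ones lay in 1 cell. Its log2 ratio in the library as a whole was 2.63.

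Il12b, the IL-12 subunit by which tumour cDC1 sustain T cells, stood at 12.9 and 26.8 CPM, on 8 and 24 UMIs in 4 and 12 cells, a ratio of 2.07 (0.901 to 5.34) that included 1. Il6 stood at 12.9 and 53.6 CPM, on 8 and 48 UMIs, a ratio of 4.14 (1.94 to 10.1), in 6 cells of either tumour, against a log2 ratio of -0.65 in cDC2 and -1.27 in macrophages. Ccl4 stood at 490 and 190 CPM, 2.58-fold lower (2.13 to 3.13), and Ccl3 at 223 and 95 CPM, 2.35-fold lower (1.78 to 3.12). Ccl3 and Ccl4 encode chemokines that attract leukocytes, and their log2 ratios in all kept barcodes were 0.33 and 0.27.

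The gene of the receptor that AF12198 is described as blocking was barely measured in cDC1. Il1r1 had 2 UMIs in 108 control members and 9 in 109 AF12198 members, 2.13 and 7.18 CPM, and fell short of the 20 UMIs set for a measured gene. The decoy receptor Il1r2 was present, at 181 and 112 CPM in the stricter set, a ratio of 0.617 (0.466 to 0.815), and was lower in the AF12198 tumour in cDC2 (-1.39) and mature dendritic cells (-0.95). Il1rap, the shared co-receptor, had 9 and 4 UMIs in all members. Of the 9 measured genes of the receptor and adaptor list, 4 (44.4%) were lower and none higher in all members, beside 35.3% of all genes lower, with a median of -0.45 (-0.11 relative to all genes). In the stricter set 6 of 9 (66.7%) were lower and none higher, beside 35.8% of all genes lower. The median there was -0.68 (-0.34 relative to all genes). The list median was -0.80 in cDC2, -0.53 in mature dendritic cells and -0.56 in macrophages. The adaptor Myd88 stood at 77.6 and 51.4 CPM in the stricter set, a ratio of 0.662 (0.432 to 1.01).

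Genes that IL-1 and NF-kB switch on had a list median of 0.31 in all members (7 of 21 higher, 4 lower), or 0.64 relative to all genes. In the stricter set the median was -0.17, or 0.17 relative to all genes. There 4 (19.0%) were higher and 8 (38.1%) lower, beside 11% and 35.8% of all genes. The list median was -0.65 in cDC2, -0.20 in mature dendritic cells and -0.53 in macrophages. Nfkbia, the inhibitor that NF-kB induces, stood at 260 and 320 CPM in all members and 231 and 169 CPM in the stricter set, a ratio of 0.729 (0.576 to 0.923). Nfkbie stood at 98.7 and 39.1 CPM in the stricter set, a ratio of 0.396 (0.254 to 0.610), and Nfkb1 at 353 and 183 CPM, 0.520 (0.422 to 0.639). Bcl2a1b stood at 275 and 599 CPM, a ratio of 2.18 (1.83 to 2.60), and was higher in every class, by a log2 ratio of at least 1.10. Cxcl1 stood at 21 and 54.7 CPM, a ratio of 2.60 (1.39 to 5.23), in 11 and 5 cells.

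Interferon response genes had a median of -0.03 over 20 measured (1 higher, 5 lower), or 0.30 relative to all genes. In the stricter set the median was 0.02 (2 of 16 higher, 6 lower), and with at least 3 UMIs of Xcr1 and Clec9a required it was -0.92. Isg15 stood at 24.3 and 52.5 CPM in the stricter set, a ratio of 2.16 (1.19 to 4.17). Irf1, a transcription factor that interferon induces, went the other way and stood at 85.7 and 43.6 CPM, a ratio of 0.508 (0.327 to 0.783). Gbp2, at 59.8 and 68.2 CPM, and Zbp1, at 51.8 and 55.9 CPM, had ratios of 1.14 (0.745 to 1.76) and 1.08 (0.679 to 1.74).

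Among receptors for pathogen signals, 4 of 16 (25%) were higher and 6 (37.5%) lower in all members, beside 10.1% and 35.3% of all genes. The median was -0.37 (-0.03 relative to all genes). In the stricter set none of 11 was higher and 4 (36.4%) were lower, a share near the 35.8% of all genes. The median there was -0.52 (-0.18 relative to all genes). Tlr2 and Cd14, which macrophages express, were among the higher ones at ratios of 2.05 (1.43 to 2.99) and 1.80 (1.56 to 2.09) in all members, and stood at 14.6 and 7.82 CPM and at 137 and 146 CPM in the stricter set. The DNA sensor gene Aim2 stood at 71.2 and 30.2 CPM, a ratio of 0.424 (0.252 to 0.700). Tlr7 had 21 UMIs in control members, 19 of them in the plasmacytoid-marker cells.

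Chemokine receptors and integrins had a median of -0.52 over 15 measured genes (none higher, 6 or 40% lower, beside 35.3% of all genes) and -0.74 in the stricter set (none of 13 higher, 7 or 53.8% lower, beside 35.8%). The list median was -0.13 in cDC2 and -0.25 in mature dendritic cells. Ccr2 stood at 189 and 74.9 CPM, 2.53-fold lower (1.86 to 3.47). Itgax (CD11c) stood at 188 and 112 CPM, a ratio of 0.596 (0.451 to 0.785). Ccr9 was lower in all members, with 170 and 14 UMIs, but 157 of the 170 lay in the plasmacytoid-marker cells, which Ccr9 helped to define.

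Receptors for growth factors and cytokines had a median of -0.33 in all members, level with all genes (0.01 relative to them), with 2 of 20 higher and 6 lower. The stricter set had 1 of 20 higher and 9 lower, with a median of -0.25 (0.09 relative to all genes). Beside Flt3, Kit stood at 168 and 97.2 CPM in the stricter set, a ratio of 0.578 (0.430 to 0.776), and Il10ra at 72.8 and 23.5 CPM, 0.322 (0.182 to 0.553). Csf2rb, the beta chain of the GM-CSF receptor, stood at 875 and 785 CPM, a ratio of 0.898 (0.801 to 1.01). Ifngr1 stood at 210 and 222 CPM, a ratio of 1.06 (0.844 to 1.33).

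Survival and apoptosis genes had a median of -0.35 in all members, level with all genes, with 3 of 12 higher and 4 lower. The stricter set had 3 of 11 higher and 3 lower, with a median of -0.35. Bax, which opens the mitochondrial membrane, stood at 61.5 and 151 CPM in the stricter set, a ratio of 2.45 (1.70 to 3.62), and Bcl2a1d at 93.8 and 201 CPM, 2.14 (1.59 to 2.93). Bax was higher in every class, with log2 ratios from 0.90 to 1.80. Xiap, an inhibitor of caspases, stood at 150 and 54.7 CPM, 2.75-fold lower (1.92 to 3.97). Bcl2l1 stood at 53.4 and 14.5 CPM, a ratio of 0.272 (0.131 to 0.531).

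NFAT, a factor named in the study's title, is switched on by the phosphatase calcineurin. Of 14 measured genes of this pathway, 9 (64.3%) were lower and 1 higher in all members, beside 35.3% of all genes lower. The median was -0.65, close to those of cDC2 (-0.68) and macrophages (-0.64). The stricter set had 7 of 14 (50%) lower and 2 higher, with a median of -0.61 (-0.27 relative to all genes). The calcineurin B gene Ppp3r1 stood at 118 and 45.8 CPM in the stricter set, a ratio of 0.388 (0.258 to 0.576). Nr4a1, an immediate-early target, stood at 626 and 251 CPM, 2.49-fold lower (2.11 to 2.95), and was lower in every class. Rcan1, an inhibitor of calcineurin that NFAT induces, went the other way at 11.3 and 41.3 CPM, on 7 and 37 UMIs, a ratio of 3.65 (1.61 to 9.71), in 7 and 9 cells, against a log2 ratio of 0.38 in cDC2 and -0.28 in macrophages. The genes Nfatc1, Nfatc2 and Nfat5 had ratios of 0.813 (0.502 to 1.32), 0.816 (0.445 to 1.51) and 0.691 (0.447 to 1.07).

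Tissue was digested with collagenases at 37 °C for 90 minutes, and genes that respond to such digestion were lower too. Over 16 measured the median was -0.52 (-0.18 relative to all genes). Of these, 2 (12.5%) were higher and 8 (50%) lower, beside 10.1% and 35.3% of all genes. The stricter set had a median of -0.80 (-0.45 relative to all genes). There none was higher and 9 (56.25%) were lower, beside 35.8% of all genes lower. Hspa1b stood at 1190 and 222 CPM, 5.35-fold lower (4.57 to 6.29), and Dusp1 at 662 and 246 CPM, 2.69-fold lower (2.28 to 3.18). The list was lower in cDC2 (-1.35), mature dendritic cells (-1.06) and macrophages (-1.11) as well. Its part in the levels of the other genes was not tested.

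Cell cycle genes were lower in AF12198 cDC1, with 14 of 20 (70%) at least 1.5-fold lower, beside 35.3% of all genes. The median was -1.03 (-0.69 relative to all genes), and -0.96 in the stricter set. Top2a stood at 278 and 109 CPM in the stricter set, a ratio of 0.394 (0.304 to 0.507), and Mki67 at 202 and 88.3 CPM, 0.437 (0.325 to 0.583). Ube2c, a mitotic ubiquitin enzyme, stood at 259 and 80.4 CPM, 0.311 (0.232 to 0.413). The replication genes Mcm3, at 79.3 and 76.0 CPM, and Tyms, at 32.3 and 32.4 CPM, had ratios of 0.959 (0.654 to 1.41) and 1.00 (0.547 to 1.87). The list median was 0.33 in cDC2, -0.14 in macrophages and -0.68 in mature dendritic cells. The pair that was higher, Hist1h1b and Hist1h2ae, are histone genes; Hist1h1b was also higher over all kept barcodes (log2 ratio 2.20).

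These genes came from a minority of cells. At least 5 UMIs over 7 cell cycle genes were found in 25 of 108 control members, 23.1% (15.6 to 32.2), and 15 of 109 AF12198 members, 13.8% (7.91 to 21.7), and these cells held 96.3% and 87.9% of the UMIs of the 7 genes. Thinned to 1000 UMIs, 27 of 106 (25.5%) and 16 of 109 (14.7%) had at least 1 UMI of them. In the stricter set the shares were 19 of 76, 25% (15.8 to 36.3), and 12 of 80, 15% (8.0 to 24.7). The intervals of the tumours overlapped in each of these counts. A share cut from such a count is a range, and 2 control and 9 AF12198 members lay just below it.

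Among genes at or above their level in the library as a whole, Tcea3, a transcription elongation factor, came first on the higher side in all members by the bound of its ratio nearest to 1. It had 1 UMI in control members and 38 in 15 AF12198 members, a ratio of 28.4 (4.80 to 1152), and its log2 ratio was at most 0.26 in any other class. Gm34084, a predicted gene, had 10 and 88 UMIs, a ratio of 6.58 (3.41 to 14.2). Gm34084 came first in the stricter set, at a ratio of 10.2 (4.19 to 32.4), and Tcea3 next. Procr, the endothelial protein C receptor, stood at 43.7 and 140 CPM in all members, a ratio of 3.19 (2.26 to 4.60), against 27.2 and 10.2 CPM in cDC2. Procr in the stricter set stood at 43.7 and 87.2 CPM, a ratio of 2.0 (1.27 to 3.22).

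Most other higher genes were not limited to cDC1. S100a11, at 638 and 1785 CPM, Ifitm3, at 392 and 1118 CPM, Ifitm2, at 289 and 789 CPM, Cd52, at 1197 and 2786 CPM, Ost4, at 101 and 274 CPM, and Nme2, at 356 and 841 CPM in all members, had log2 ratios above 0 in all 9 other classes. The remaining genes of the first 15 were Hist1h4d, Sri, and those named above, Ccl17, Hist1h1b, Hist1h2ae and Bcl2a1b. Genes that stood in cDC1 below their level in the library as a whole were kept apart; the first of these were Try4, Lyz2, Ccl5, Fpr2 and Ccl6 on the higher side and Ighg1, Ighg2b, Gm26917 and Igha on the lower side.

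Among the 15 genes furthest lower, the predicted genes Gm42031, with 114 and 2 UMIs, a ratio with a counting interval of 20.6 to 637-fold lower, Gm43305 and Gm49980 were lower in every class, by a log2 ratio of at most -1.09. Siglech (224 and 15 UMIs), Ccr9 (170 and 14), Runx2 (82 and 11), Tcf4 (316 and 65), Atp1b1 (56 and 8) and Dntt (29 and 3) had most of their control UMIs in the 18 plasmacytoid-marker cells, which Siglech and Ccr9 helped to define. So did Lrp8 (58 of 63), Ly6c2 (167 of 175) and Bcl11a (50 of 79). Mctp2 had 42 control UMIs, 41 of them in those cells, and none in AF12198 members, at least 18.7-fold lower against a floor of 3 counts. The mitotic genes Cep55, at 42.6 and 4.78 CPM, 8.92-fold lower (3.76 to 25.7), and Foxm1, with 22 and 2 UMIs, completed the 15. Among the 15 lowest of the stricter set the plasmacytoid genes were absent and Wdfy1, Hmmr, Piezo1, Ncapd2, Ptar1, Ube2c, Pou2f1 and Lmtk2 were present.

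Some genes varied among cDC1 of the same tumour far more than counting predicts. With each cell thinned to 1000 UMIs (106 control and 109 AF12198 cells), the median variance over mean of 1182 genes was 1.11 and 1.09, close to the 1 of pure counting. Lyz2 reached 10.8 in the control and 9.07 in the AF12198 tumour, Cxcl2 8.13 and 10.4, Apoe 7.08 and 12.2, and Cxcl9 5.38 and 5.78. Hbb-bs, Col1a2, Col1a1 and Sparc, genes of red cells and fibroblasts, were also among the first 15, with Hbb-bs at 17.5 and 50.2. Cst3, a gene of the dendritic lineage, reached 7.56 and 9.78, and the others were Malat1, Gm42418, Fth1, Tmsb4x, mt-Co1 and mt-Co2. These values are over all members, and macrophage-marker cells held 3180 of the 3945 AF12198 UMIs of Lyz2 and 2136 of the 2847 of Cxcl2. Over the stricter set (74 control and 80 AF12198 cells), variance over mean was 1.38 and 2.07 for Lyz2, 1.05 and 1.16 for Apoe, 8.81 and 14.9 for Cxcl2, 1.62 and 3.9 for Cxcl9 and 4.22 and 4.81 for Cst3.

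The ligands that cDC1 read were taken from the other gated cells. Xcl1, the ligand of XCR1, stood at 166 CPM (154 to 179) in control and 534 CPM (514 to 555) in AF12198 CD8 T cells, a ratio of 3.22 (2.96 to 3.50), and had a UMI in 25.1% and 35.0% of them. In NK cells Xcl1 stood at 104 and 361 CPM, a ratio of 3.46 (2.81 to 4.29), with a UMI in 19.1% and 43.8% of cells. Flt3l, the ligand of FLT3, was lower, at 34.2 and 19.9 CPM in CD8 T cells and 37.1 and 21.4 CPM in NK cells. The share of cDC1 differed by less than counting error between the 2 tumours, and a link between these ligands and cDC1 was not tested.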

How the data were processed

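The authors deposited 1 matrix of UMI counts per gene and cell barcode for each of 4 libraries (10x Genomics 3' v3 chemistry per the labels), made with Cell Ranger 6.0.0 with the mm10 genome, per the submitters' processing notes. No source used here gives its annotation or cell-calling settings. All columns belonged to the 4 samples (0 of other samples). Members' counts were summed per library and divided by all their UMIs (CPM), with exact Poisson, Clopper-Pearson and conditional intervals. Genes with 20 UMIs over both tumours were measured, a floor of 3 counts stood in for 0, and log2 ratios used CPM + 1. With 1 library per group no test was made. The members, gene lists and rules were chosen with earlier results of these data known.

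Named genes were the 15 highest and 15 lowest by the bound of the ratio's interval nearest to 1, with UMIs in 5 cells of the higher library, at most 25% of its UMIs in 1 cell, and a level at or above that of all kept barcodes. Mitochondrial, ribosomal, Gm42418, AY036118 and sex-linked genes were left out. Leading genes were ranked by the lower ratio of the 2 tumours, varying genes by the lower variance over mean. Promoters came from RefSeq. Doublets were kept in the main values and removed with Scrublet in an alternative, where its threshold called 1 control barcode, so the top 5% of scores (1190 barcodes) were removed, and 1231 AF12198 barcodes were called. Ratios and intervals were tested on simulated Poisson and binomial counts without spread between cells. That check does not cover genes whose UMIs lie in few cells. Tools were Python 3.11.15, NumPy 2.4.6, SciPy 1.17.1, pandas 2.3.3, scanpy 1.11.5 and matplotlib 3.10.9.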

Additional observations from a re-analysis of the deposited data

How the results depend on the processing

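The share ratio of cDC1 ranged from 0.951 to 1.37 over 14 alternatives, each within the interval of 0.825 to 1.43. The counts of genes past 2-fold, 353 higher and 1209 lower, were 224 higher with at least 3 Xcr1 and Clec9a UMIs, 203 and 541 with at least 50 UMIs per gene, 698 and 505 relative to the median ratio, 150 and 257 with cells thinned to 1000 UMIs and 167 and 388 with a pseudocount of 10. Of 324 list medians, 306 stayed within the counting interval of the middle genes of their list, which is wide for short lists; of all 324, 20 changed sign and 11 moved by more than 1.5-fold. Among those within the interval, interferon gave -0.92 at 3 or more UMIs, MHC class II 0.077 with no gene excluded and DC maturation 0.019 with macrophage genes at 0. The IL-1 and NF-kB median of 0.31 was -0.31 with members of 1 UMI admitted, -0.47 at 3 UMIs, -0.33 with macrophage genes at 0, 0.64 relative to the median ratio and -0.17 in the stricter set. The cytokine median of 0.87 reversed to -0.24 at 3 UMIs and -0.10 (-0.095) with macrophage genes at 0. Chemokine receptors gave -1.01 at 3 UMIs, -0.99 with macrophage genes at 0, and -0.18 both relative to the median ratio and thinned. With macrophage genes at 0, identity gave -0.34, cell cycle -0.32 and dissociation -1.15. Relative to the median ratio, identity gave -0.25, cross-presentation -0.11 (-0.17 thinned) and MHC class II 0.23. Of 1616 single-gene values 256 moved outside their counting interval and 4 reversed. A reversal was counted only for genes at least 2-fold apart in the main values with an interval that excluded 1. The reversed values were Tnf to -0.47 at 3 UMIs, -0.0070 with a UMI of both genes and -0.75 in the stricter set, and Cxcl10 to -1.24 at 3 UMIs. The causes were not tested. The settings that leave out plasmacytoid-marker members, or both marker sets, or ask for Xcr1 alone, and the identity list without Xcr1 and Clec9a (-0.56), were chosen after seeing the data. No paired analysis was possible because each group was 1 library. Depth limits genes such as Il1r1, Il12b and Zbtb46, which rest on few UMIs.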
